A study of Mus musculus with 9 samples.

Results

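Cholesterol genes of mouse liver are described here across 3 treatment groups: the enzymes that build cholesterol, the proteins that sense it, and the proteins that move, store or export it. The 29 members were taken by gene symbol from a fixed list, and the deposited values hold 24541 symbols in all. Levels are in FPKM, a count of sequenced fragments divided by transcript length and by library size. All 29 members averaged at least 0.5 FPKM, as did 12202 symbols in total, and these 12202 were tested. The mice were of the Balb/c strain and 9 weeks old, and each library came from 1 liver. Vehicle livers (n = 3) came from mice given vehicle. APAP livers (n = 3) came from mice given acetaminophen, a drug that hepatocytes turn into a toxic metabolite. LRH1+APAP livers (n = 3) came from mice given acetaminophen and LRH1, the nuclear receptor encoded by Nr5a2. Dose, route, time of collection, sex and the means of LRH1 delivery are not stated in the labels used here, and no group received LRH1 without acetaminophen. Nothing in the labels states whether the livers of a group came from separate experiments, so p-values measure the spread between these livers only.

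Cholesterol is made from acetyl-CoA through mevalonate, the isoprenoid diphosphates, squalene and lanosterol. When the endoplasmic reticulum is poor in sterol, SCAP escorts SREBP2, the product of Srebf2, to the Golgi, where it is cut to release a transcription factor of the synthesis genes. The INSIG proteins hold SCAP back when sterol is plentiful. Excess cholesterol is esterified, or exported by ABC transporters whose genes answer to the oxysterol receptors LXR. The liver is the main organ of this balance, since it also turns cholesterol into bile acids.

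SREBP2 binds sterol regulatory elements near gene starts, commonly beside a CCAAT box, the site of the factor NF-Y. The bases upstream of the start are therefore shown for the members with the largest called differences that the promoter sequences cover, Cyp51, Insig2 and Mvd, and for Insig1. Hmgcs1 is shown as well, and was chosen after the motif search because it was the only member with a match to the sterol regulatory element. Sequences are from RefSeq promoters on GRCm38.p6, the assembly also called mm10, and run 5′ to 3′ on the gene's strand over the 250 bases before the start. Capitals mark a CCAAT box on either strand (CCAAT or ATTGG) and, in Hmgcs1, also the sterol regulatory element TCACNCCAC.
Hmgcs1, chr13:119690101-119690350, plus strand: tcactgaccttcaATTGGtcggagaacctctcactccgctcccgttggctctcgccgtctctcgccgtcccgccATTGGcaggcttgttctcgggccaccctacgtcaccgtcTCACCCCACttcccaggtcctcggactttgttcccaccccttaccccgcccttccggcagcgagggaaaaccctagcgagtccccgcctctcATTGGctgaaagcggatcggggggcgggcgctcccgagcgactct
Mvd, chr8:122443423-122443672, minus strand: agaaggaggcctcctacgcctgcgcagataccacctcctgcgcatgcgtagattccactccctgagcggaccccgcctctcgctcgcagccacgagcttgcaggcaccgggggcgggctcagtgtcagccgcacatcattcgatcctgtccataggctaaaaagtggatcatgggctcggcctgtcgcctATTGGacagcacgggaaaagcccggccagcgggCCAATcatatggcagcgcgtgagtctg
Cyp51, chr5:4104698-4104947, minus strand: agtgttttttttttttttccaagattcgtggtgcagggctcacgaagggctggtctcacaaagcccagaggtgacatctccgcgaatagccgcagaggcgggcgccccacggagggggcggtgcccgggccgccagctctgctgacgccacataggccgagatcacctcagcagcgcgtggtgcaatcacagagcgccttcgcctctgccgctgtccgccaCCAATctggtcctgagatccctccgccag
Insig1, chr5:28071162-28071411, plus strand: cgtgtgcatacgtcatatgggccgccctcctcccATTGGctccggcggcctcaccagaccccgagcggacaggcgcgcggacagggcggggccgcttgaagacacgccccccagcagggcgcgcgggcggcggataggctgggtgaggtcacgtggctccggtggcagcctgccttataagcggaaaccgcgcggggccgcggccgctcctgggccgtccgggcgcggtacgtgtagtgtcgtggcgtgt
Insig2, distal start, chr1:121332590-121332839, minus strand: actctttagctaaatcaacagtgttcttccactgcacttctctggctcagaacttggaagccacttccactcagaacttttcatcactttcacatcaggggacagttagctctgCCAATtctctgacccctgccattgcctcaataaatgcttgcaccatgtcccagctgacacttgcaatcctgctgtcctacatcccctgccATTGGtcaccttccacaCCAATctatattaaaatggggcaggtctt
Insig2, proximal start, chr1:121328025-121328274, minus strand: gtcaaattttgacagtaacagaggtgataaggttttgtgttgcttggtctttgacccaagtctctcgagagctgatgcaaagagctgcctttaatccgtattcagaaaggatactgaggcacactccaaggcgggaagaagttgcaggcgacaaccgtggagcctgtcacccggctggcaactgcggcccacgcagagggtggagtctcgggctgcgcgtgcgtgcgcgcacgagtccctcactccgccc
In Hmgcs1 the element lay 137 to 129 bases before the start, with CCAAT boxes on its minus strand at 237 to 233, 176 to 172 and 45 to 41 bases before the start, and the motifs did not overlap. The distal Insig2 window held 3 CCAAT boxes and the proximal one held none. Of the members, 22 of 29 had a promoter entry, and Fdps, Fdft1, Sqle, Stard4, Npc1, Soat2 and Abcg1 had none. A CCAAT box on either strand was found for 19 of the 22 members (86.4%) and for 37.5% of the 27025 genes with an entry. A gene with several entries counted for a motif if any 1 of them held it. The box of Pmvk lay before the start of NM_001310640, a transcript model at no more than 0.131 FPKM in any liver. The boxes of Dhcr7 lay before a start at 143830214, and its measured model began at 143823168, where the window held 0. The sterol regulatory element was found for 1 of 22 members (4.55%) and for 1.22% of genes. The LXR direct repeat, searched on both strands, was found for 0 of 22 members and for 0.0259% of genes. These counts describe letters in a short window and were not tested.

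Depth in reads is unknown. Summed FPKM was 520072 to 529493 in LRH1+APAP livers, below the 546381 to 575365 of all other livers. Nr5a2 measured 206, 83.8 and 113 FPKM in LRH1+APAP livers 1 to 3, 10.8, 9.29 and 10.3 FPKM in APAP livers and 14.7, 13.1 and 12.3 FPKM in Vehicle livers, higher in each LRH1+APAP liver than in any other. The APAP livers were less alike than those of the other groups. Their Spearman correlations across genes were 0.949 between livers 1 and 2, 0.976 between livers 1 and 3 and 0.977 between livers 2 and 3, and those within the other groups were 0.989 to 0.991. Liver 2 had the lowest correlations with the Vehicle livers (0.864 to 0.870), and liver 1 the highest of its group (0.942 to 0.948). Member calls that change when APAP liver 1 is left out are given with and without it. The livers carried their labelled tissue: the 9 hepatocyte markers summed to between 48850 and 53130 FPKM in the Vehicle group, between 41470 and 43720 FPKM in the APAP group and between 43920 and 50390 FPKM in the LRH1+APAP group, and 0 of 9 were at 0. Of these 9, 5 fell in APAP against Vehicle livers, beside 15.1% of all genes tested. In LRH1+APAP against APAP livers 3 rose and 1 fell, beside 7.13% and 5.17%. The counts were 2 and 1 without APAP liver 2, and 1 and 0 without APAP liver 3. In LRH1+APAP against Vehicle livers 3 fell, beside 8.02%. In whole liver, fewer cells of a type and less RNA per cell cannot be told apart.

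Members went in both directions in APAP against Vehicle livers. Of 12202 genes tested, 62.9% passed in this comparison. Among members, 9 of 29 rose, against 47.8% of all genes tested, and 6 of 29 fell, against 15.1% of all genes tested (limma on log2(FPKM + 1), Benjamini-Hochberg adjusted p under 0.05 over 12202 genes). Mvd, Fdps, Ggps1, Sqle, Cyp51, Dhcr7, Insig2, Soat2 and Abcg1 rose, and Acat2, Fdft1, Ebp, Sc5d, Insig1 and Stard4 fell. The median log2 difference was 0.24 over the 29 members and 0.25 over all genes tested. Upper-quartile scaling of the libraries moved the median of all genes by -0.211 and quantile normalization by -0.288, and the split of member calls became 7 higher and 8 lower, and 5 higher and 8 lower. Without APAP liver 1 it was 14 higher and 6 lower. The groups did not overlap for 8 members with higher and 6 with lower APAP livers, beside 50.5% and 16.5% of all genes.

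In LRH1+APAP against APAP livers, 3 of 29 members rose (Acat2, Fdft1 and Sc5d), against 7.13% of all genes, and 1 fell (Insig2), against 5.17% of all genes. Against Vehicle livers, LRH1+APAP livers had 8 of 29 members that rose (Mvd, Fdps, Ggps1, Sqle, Cyp51, Npc1, Soat2 and Abcg1), against 39.2% of all genes, and 1 fell (Fdft1), against 8.02% of all genes. In either direction, 12.3% of all genes passed against APAP and 47.2% against Vehicle livers. LRH1+APAP livers did not overlap with APAP livers for 6 higher and 2 lower members, beside 17.9% and 15.7% of all genes, nor with Vehicle livers for 15 higher and 4 lower members, beside 54.6% and 14.5% of all genes. The median log2 difference over members was 0.045 and 0.28 in these comparisons, beside -0.013 and 0.22 over all genes. Each group serves in 2 of the 3 comparisons, so their values are not independent and are given side by side. The first of these comparisons depended on single livers: it gave 6 higher and 6 lower members without APAP liver 1, 1 higher without APAP liver 3 or LRH1+APAP liver 1, and 0 higher without LRH1+APAP liver 2 or liver 3. LRH1+APAP against Vehicle livers gave 13 higher and 3 lower members without APAP liver 1. In each comparison, the group outside it enters only through the spread between livers that the fit shares. Leaving out a liver of that group moved p-values and left the log2 differences unchanged. The plot of differences in pathway order shows the calls of all 3 comparisons.

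**Figure D1:**
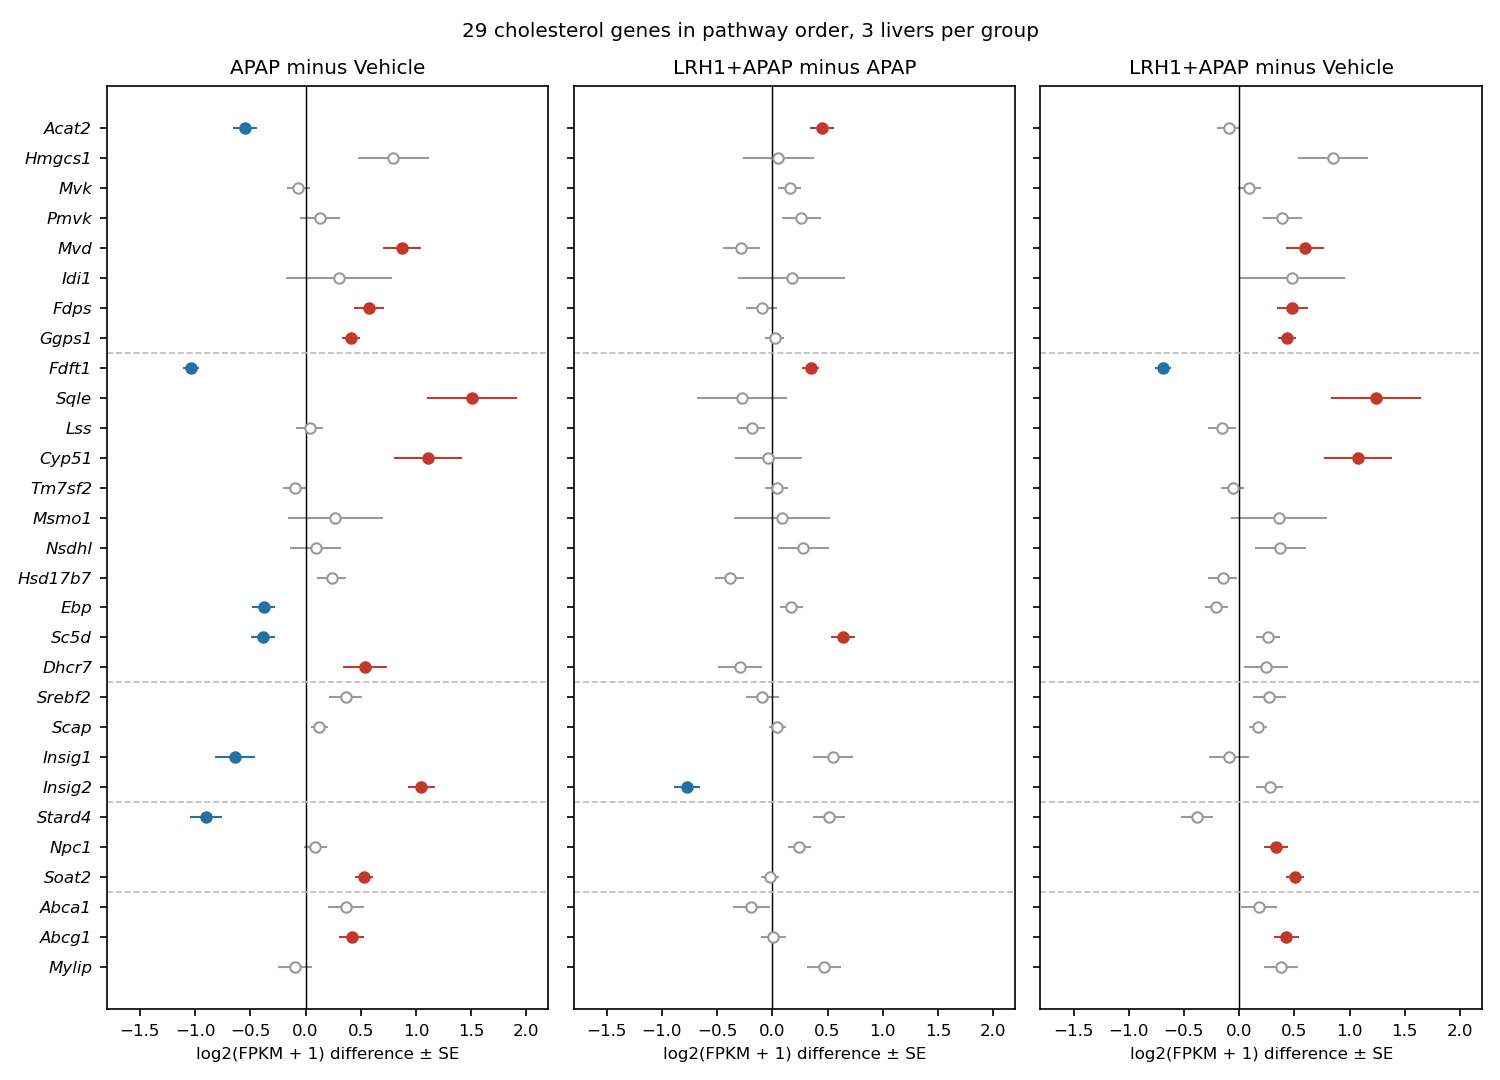
Log2(FPKM + 1) difference of each of the 29 members, in pathway order from top to bottom, with its limma SE, for the 3 comparisons (3 livers per group). Red and blue filled points passed as higher or lower, open grey points did not, and dashed lines separate the early pathway, the steps from squalene to sterol, SREBP control, transport and esters, and LXR-linked efflux. Fdft1 and Sqle, adjacent steps, lie at -1.04 and 1.51 in APAP minus Vehicle.

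The early pathway, from acetyl-CoA to the isoprenoid diphosphates, held 8 members, of which 3 rose and 1 fell in APAP against Vehicle livers, beside 47.8% and 15.1% of all genes. Acat2, the cytosolic thiolase that condenses acetyl-CoA (chromosome 17, 12943043 to 12960725, mm10), was measured at 31.03, 31.5 and 28.9 FPKM in Vehicle livers, 24.8, 18.8 and 18.4 FPKM in APAP livers and 28.6, 27.9 and 28.7 FPKM in LRH1+APAP livers. All APAP livers lay below all others. The fall in APAP against Vehicle livers (log2 difference -0.55, SE 0.11, adjusted p = 0.00248) and the rise in LRH1+APAP against APAP livers (log2 difference 0.45, SE 0.11, adjusted p = 0.0323) passed. The second of these was lost when any 1 liver other than APAP liver 1 was left out (adjusted p from 0.0506 to 0.105) and with only the 6 libraries compared (adjusted p = 0.0946). Against Vehicle livers the LRH1+APAP livers differed by a log2 of -0.096 (adjusted p = 0.484). Acat2 passed as lower there under upper-quartile scaling (adjusted p = 0.0432).

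Hmgcs1, the cytosolic HMG-CoA synthase of the next step (chromosome 13, 119690352 to 119708260), was measured at 16.2, 20.6 and 18.4 FPKM in Vehicle livers, 20.6, 42.99 and 38.9 FPKM in APAP livers and 38.5, 21.5 and 46.6 FPKM in LRH1+APAP livers. APAP liver 1 lay among the Vehicle livers while APAP livers 2 and 3 lay far above them, and LRH1+APAP liver 2 lay far below livers 1 and 3 of its group. Hmgcs1 did not pass in APAP against Vehicle (log2 difference 0.80, SE 0.32, adjusted p = 0.0558), LRH1+APAP against APAP (log2 difference 0.055, SE 0.32, adjusted p = 0.918) or LRH1+APAP against Vehicle livers (log2 difference 0.85, SE 0.32, adjusted p = 0.0555). It passed in APAP against Vehicle livers without APAP liver 1 (log2 difference 1.11, adjusted p = 0.00697) or without LRH1+APAP liver 2 (adjusted p = 0.028). In LRH1+APAP against Vehicle livers it passed without APAP liver 1, APAP liver 2 or LRH1+APAP liver 2 (adjusted p = 0.0185, 0.0423 and 0.0182). With only the 6 libraries compared it passed in both (adjusted p = 0.0424 and 0.0231).

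The mevalonate kinases gave no call. Mvk, which phosphorylates mevalonate, had means of 3.59 ± 0.453, 3.38 ± 0.327 and 3.89 ± 0.4299 FPKM in Vehicle, APAP and LRH1+APAP livers (mean ± SD, n = 3 throughout). Pmvk, the kinase of the following step, had 11.8 ± 2.09, 12.9 ± 0.0638 and 15.9 ± 3.89 FPKM, and neither kinase passed in any of the 3 comparisons. Pmvk passed in LRH1+APAP against Vehicle livers without LRH1+APAP liver 2 (adjusted p = 0.0168), and Mvk passed as lower in APAP against Vehicle livers under upper-quartile scaling (adjusted p = 0.035) and quantile normalization (adjusted p = 0.00724).

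Mvd, the decarboxylase that makes isopentenyl diphosphate, was the early member with the largest called difference. Its values were 1.24, 1.39 and 1.34 FPKM in Vehicle livers, 2.82, 2.73 and 4.45 FPKM in APAP livers and 3.07, 1.86 and 2.73 FPKM in LRH1+APAP livers. Every liver of the latter groups lay above every Vehicle liver. Mvd rose in APAP (log2 difference 0.88, SE 0.17, adjusted p = 0.00239) and in LRH1+APAP livers (log2 difference 0.60, SE 0.17, adjusted p = 0.0207) against Vehicle livers. The second call was lost without Vehicle liver 1 or 3 or LRH1+APAP liver 1 or 3 (adjusted p from 0.0543 to 0.0708) and under both scalings.

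Idi1, the isomerase of isopentenyl diphosphate, was measured at 5.86, 9.22 and 8.03 FPKM in Vehicle livers, 3.91, 14.5 and 14.6 FPKM in APAP livers and 12.98, 5.92 and 16.6 FPKM in LRH1+APAP livers. APAP liver 1 and LRH1+APAP liver 2 lay far below the other livers of their groups, and no comparison passed (adjusted p of 0.603, 0.824 and 0.437). Fdps, the farnesyl diphosphate synthase, had 18.9 ± 1.81, 28.6 ± 1.602 and 27.1 ± 5.298 FPKM in Vehicle, APAP and LRH1+APAP livers. It rose in APAP (log2 difference 0.58, SE 0.14, adjusted p = 0.00677) and LRH1+APAP (log2 difference 0.48, SE 0.14, adjusted p = 0.0219) against Vehicle livers. Both calls were lost under upper-quartile scaling (adjusted p = 0.066 and 0.204) and quantile normalization, and the second also without Vehicle liver 1 or LRH1+APAP liver 1 or 3 (adjusted p from 0.0749 to 0.0832) and with its highest model alone.

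Ggps1, which extends farnesyl to geranylgeranyl diphosphate outside the sterol line, had 1.89 ± 0.112, 2.84 ± 0.235 and 2.903 ± 0.278 FPKM and rose in APAP (log2 difference 0.41, SE 0.085, adjusted p = 0.00307) and LRH1+APAP livers (log2 difference 0.43, SE 0.085, adjusted p = 0.00424) against Vehicle livers. Its level was a sum over 9 transcript models, and with its highest model alone it no longer passed in APAP against Vehicle livers (log2 difference -0.015, adjusted p = 0.952) or in LRH1+APAP against Vehicle livers (log2 difference 0.26, adjusted p = 0.282). Both calls were also lost under quantile normalization (adjusted p = 0.56 and 0.305). Another 12 genes of the nonsterol branches were listed for dolichol and ubiquinone synthesis and protein prenylation. Of these, 9 rose in APAP against Vehicle livers, beside 47.8% of all genes, and the rest did not pass. The median log2 difference of the 12 was 0.39 beside 0.25 over all genes. Rabggtb and Rce1 of protein prenylation and Pdss1 of ubiquinone synthesis had the smallest p among them (log2 differences 0.77, 0.41 and 0.75, adjusted p = 0.000104, 0.00351 and 0.00316). The same 3 genes had the smallest p among the 5 of 12 that rose in LRH1+APAP against Vehicle livers (adjusted p = 0.000227, 0.00342 and 0.0109). Over all genes, 39.2% rose in that comparison. Of the 12, 0 passed in LRH1+APAP against APAP livers by limma, beside 12.3% of all genes, and 2 were lower at an unadjusted p under 0.05.

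At the entry to sterols, adjacent enzymes moved in opposite directions. Fdft1, the squalene synthase that commits farnesyl diphosphate to sterols (chromosome 14, 63145152 to 63179578), was measured at 16.96, 18.6 and 15.99 FPKM in Vehicle livers, 8.13, 7.85 and 7.56 FPKM in APAP livers and 9.92, 10.1 and 10.8 FPKM in LRH1+APAP livers. The groups did not overlap, with Vehicle livers highest and APAP livers lowest. Fdft1 fell in APAP (log2 difference -1.04, SE 0.075, adjusted p = 3.58e-05) and LRH1+APAP livers (log2 difference -0.69, SE 0.075, adjusted p = 0.0002799) against Vehicle livers and rose in LRH1+APAP against APAP livers (log2 difference 0.35, SE 0.075, adjusted p = 0.0251). Both falls passed under each of the 18 alternatives tried. The rise was lost without APAP liver 3 or any 1 LRH1+APAP liver (adjusted p from 0.0606 to 0.0938) and with only the 6 libraries compared (adjusted p = 0.0729).

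Sqle, the squalene epoxidase that acts next (chromosome 15, 59315093 to 59331193), was measured at 2.32, 3.36 and 3.61 FPKM in Vehicle livers, 4.38, 17.2 and 14.7 FPKM in APAP livers and 8.43, 6.95 and 10.7 FPKM in LRH1+APAP livers. APAP livers 2 and 3 were the highest of all 9, APAP liver 1 lay between the Vehicle and the LRH1+APAP livers, and every treated liver lay above every Vehicle liver. Sqle rose in APAP livers (log2 difference 1.51, SE 0.41, adjusted p = 0.0109), the largest rise among members, and under each of the 18 alternatives. It rose in LRH1+APAP against Vehicle livers (log2 difference 1.24, SE 0.41, adjusted p = 0.0345), a call lost when any 1 Vehicle or LRH1+APAP liver was left out (adjusted p from 0.0546 to 0.112), under both scalings and with no filter on low values. LRH1+APAP livers did not pass against APAP livers with APAP liver 1 in the fit (log2 difference -0.27, SE 0.41, adjusted p = 0.669), and passed as lower without it (log2 difference -0.82, adjusted p = 0.0119). The ratio of Sqle to Fdft1 FPKM was 0.137, 0.181 and 0.226 in Vehicle livers, 0.538, 2.19 and 1.95 in APAP livers, and 0.85, 0.69 and 0.99 in LRH1+APAP livers.

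Lss, which closes squalene epoxide into lanosterol, had 4.03 ± 0.236, 4.196 ± 0.811 and 3.53 ± 0.429 FPKM and passed in no comparison. It was lower in LRH1+APAP against APAP livers without APAP liver 1 (log2 difference -0.32, adjusted p = 0.0291). It passed as lower in LRH1+APAP against Vehicle livers under upper-quartile scaling (adjusted p = 0.0297), and under quantile normalization against Vehicle livers in both treated groups (adjusted p = 0.0286 in APAP and 0.00861 in LRH1+APAP livers). Cyp51, the lanosterol demethylase whose promoter is printed above (chromosome 5, 4080675 to 4104697), was measured at 5.24, 7.42 and 6.85 FPKM in Vehicle livers, 10.3, 18.3 and 18.1 FPKM in APAP livers and 16.5, 8.97 and 21.1 FPKM in LRH1+APAP livers. Every treated liver lay above every Vehicle liver, and the treated groups overlapped. Cyp51 rose in APAP (log2 difference 1.11, SE 0.31, adjusted p = 0.0121) and LRH1+APAP livers (log2 difference 1.08, SE 0.31, adjusted p = 0.0202) against Vehicle livers, and LRH1+APAP livers did not pass against APAP livers (log2 difference -0.036, SE 0.31, adjusted p = 0.944). The rise in LRH1+APAP livers was lost without Vehicle liver 1 or LRH1+APAP liver 1 or 3 (adjusted p = 0.069, 0.0617 and 0.0743) and under quantile normalization (adjusted p = 0.0683).

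Tm7sf2, Msmo1, Nsdhl and Hsd17b7, which act after Cyp51, gave no call. Tm7sf2, a sterol reductase, had 36.6 ± 1.35, 34.2 ± 3.76 and 35.3 ± 4.23 FPKM. It passed as lower in APAP against Vehicle livers under upper-quartile scaling (log2 difference -0.36, adjusted p = 0.0234). Msmo1, the methylsterol oxidase, was measured at 21.9, 32.2 and 29.1 FPKM in Vehicle livers, 15.4, 56.04 and 41.96 FPKM in APAP livers and 38.3, 23.99 and 48.4 FPKM in LRH1+APAP livers. APAP liver 1 was the lowest of all 9 livers for Msmo1 and APAP liver 2 the highest. Without APAP liver 1, Msmo1 was higher in APAP than in Vehicle livers (log2 difference 0.80, adjusted p = 0.0335). Nsdhl, a sterol decarboxylating dehydrogenase, had 5.06 ± 0.907, 5.54 ± 1.53 and 6.97 ± 1.99 FPKM. Hsd17b7, which reduces the ketosterol made by Nsdhl, had 8.52 ± 1.096, 10.3 ± 1.87 and 7.55 ± 0.273 FPKM, and without APAP liver 1 it was higher in APAP than in Vehicle livers (log2 difference 0.38, adjusted p = 0.00743) and lower in LRH1+APAP than in APAP livers (log2 difference -0.53, adjusted p = 0.0047).

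Of the last steps, Ebp and Sc5d fell and Dhcr7 rose in APAP against Vehicle livers. Ebp, the sterol isomerase, had 56.9 ± 0.978, 43.9 ± 7.13 and 49.2 ± 2.08 FPKM in Vehicle, APAP and LRH1+APAP livers and fell in APAP against Vehicle livers (log2 difference -0.38, SE 0.10, adjusted p = 0.0121). Without APAP liver 1 it was higher in LRH1+APAP than in APAP livers (adjusted p = 0.00726) and lower than in Vehicle livers (adjusted p = 0.0108). It also passed as lower in LRH1+APAP than in Vehicle livers under upper-quartile scaling (adjusted p = 0.0151) and with only the 6 libraries compared (adjusted p = 0.0088). Sc5d, the sterol desaturase (chromosome 9, 42254178 to 42264300), was measured at 37.5, 34.9 and 33.8 FPKM in Vehicle livers, 31.3, 26.04 and 23.8 FPKM in APAP livers and 39.1, 42.3 and 46.5 FPKM in LRH1+APAP livers. The 3 groups did not overlap, with APAP livers lowest and LRH1+APAP livers highest. Sc5d fell in APAP against Vehicle livers (log2 difference -0.38, SE 0.11, adjusted p = 0.0134) and rose in LRH1+APAP against APAP livers (log2 difference 0.64, SE 0.11, adjusted p = 0.01198), the largest rise of a member in that comparison. The rise was lost without LRH1+APAP liver 2 or 3 (adjusted p = 0.0511 and 0.058) and with only the 6 libraries compared (adjusted p = 0.0573). Sc5d did not pass in LRH1+APAP against Vehicle livers in the fit of all livers (adjusted p = 0.0771). It passed as higher there without APAP liver 1 (adjusted p = 0.0218) or with only the 6 libraries compared (adjusted p = 0.0196).

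Dhcr7, the reductase of the final precursor 7-dehydrocholesterol, was measured at 6.27, 7.55 and 6.89 FPKM in Vehicle livers, 6.86, 13.3 and 12.5 FPKM in APAP livers and 8.08, 8.42 and 8.57 FPKM in LRH1+APAP livers. APAP liver 1 lay among the Vehicle livers. Dhcr7 rose in APAP against Vehicle livers (log2 difference 0.54, SE 0.20, adjusted p = 0.0411), but passed in only 1 of the 9 fits that left out a liver, the one without APAP liver 1 (log2 difference 0.81, adjusted p = 6.67e-05), and the adjusted p of the other 8 ran from 0.0583 to 0.135. The call was also lost under upper-quartile scaling (adjusted p = 0.192) and quantile normalization (adjusted p = 0.28). So it was with no filter on low values (adjusted p = 0.0649), with only the 6 libraries compared (adjusted p = 0.0847) and with the highest model alone (adjusted p = 0.0506). Without APAP liver 1 Dhcr7 was also lower in LRH1+APAP than in APAP livers (log2 difference -0.57, adjusted p = 0.00192) and higher in LRH1+APAP than in Vehicle livers (log2 difference 0.25, adjusted p = 0.0206). Against Vehicle livers it did not pass with all livers (adjusted p = 0.335), and passed with only the 6 libraries compared (adjusted p = 0.0214).

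**Figure D2:**
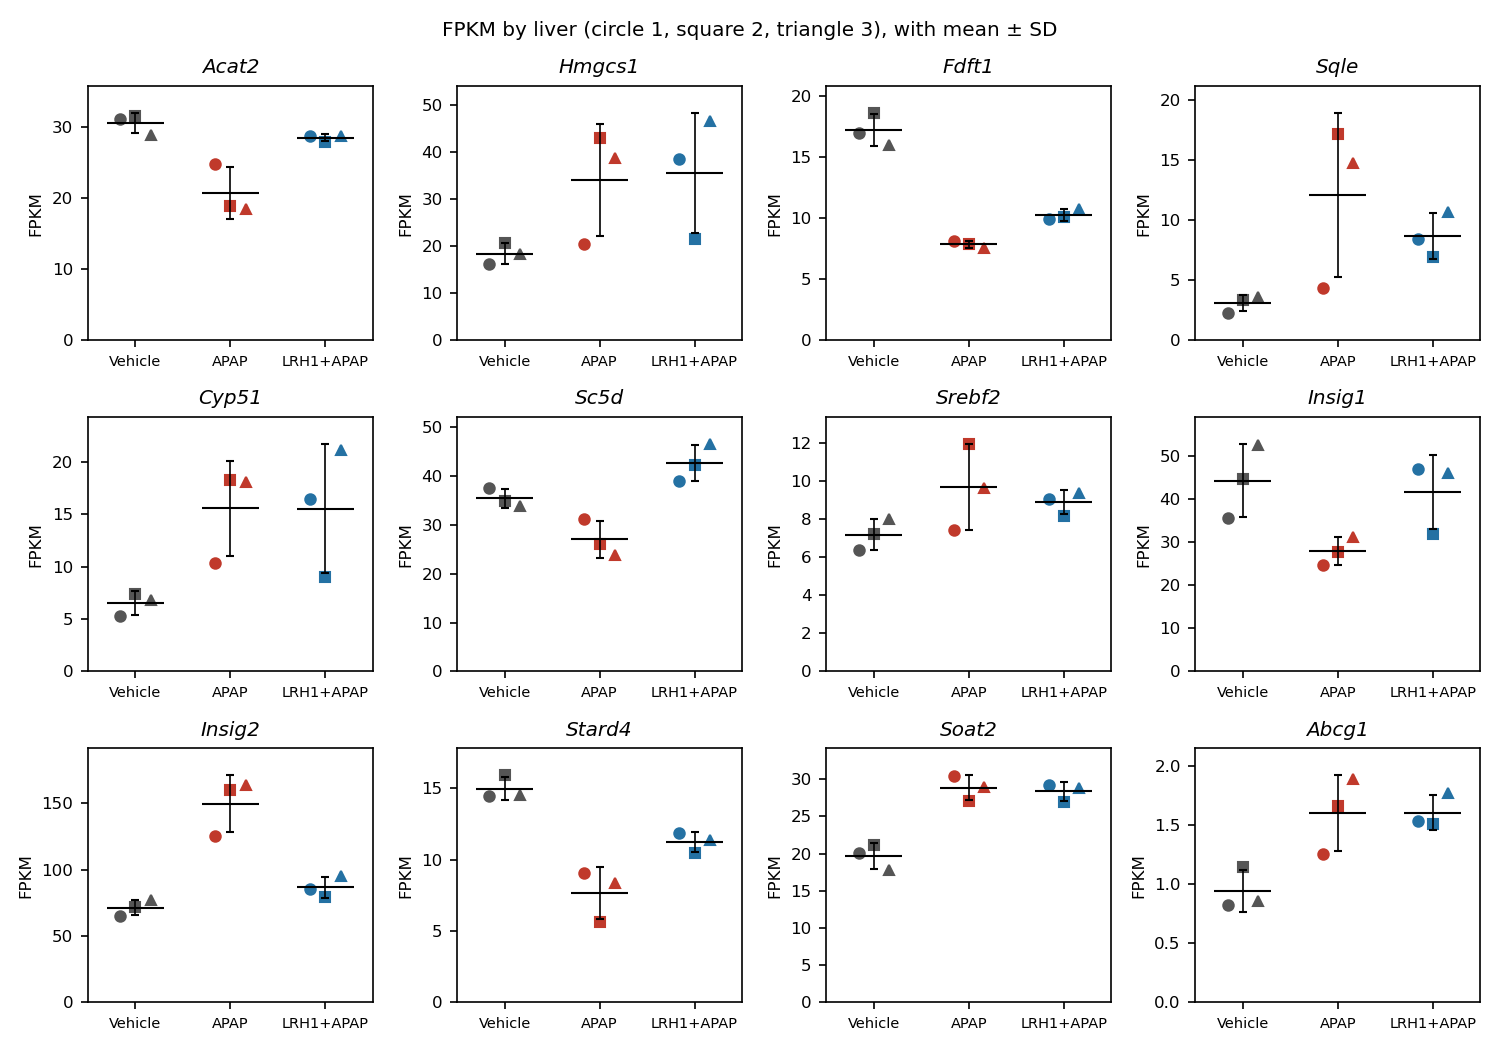
FPKM of 12 members in each of the 9 livers, with circles for liver 1, squares for liver 2 and triangles for liver 3 of a group; lines and bars are the group mean ± SD (n = 3), and each panel has its own axis from 0. Fdft1 separates the 3 groups (7.56 to 8.13 FPKM in APAP livers), while Hmgcs1, Sqle and Cyp51 spread widely within the treated groups.

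Among the proteins that control SREBP2, Insig1 fell and Insig2 rose in APAP against Vehicle livers. Srebf2, the gene of SREBP2 (chromosome 15, 82147270 to 82204960), was measured at 6.37, 7.21 and 7.99 FPKM in Vehicle livers, 7.44, 11.9 and 9.66 FPKM in APAP livers and 9.08, 8.19 and 9.39 FPKM in LRH1+APAP livers. APAP liver 1 lay among the Vehicle livers and every LRH1+APAP liver lay above them. Srebf2 did not pass in APAP against Vehicle (log2 difference 0.37, SE 0.15, adjusted p = 0.0582), LRH1+APAP against APAP (log2 difference -0.091, SE 0.15, adjusted p = 0.696) or LRH1+APAP against Vehicle livers (log2 difference 0.27, SE 0.15, adjusted p = 0.158). It passed in the first without APAP liver 1 (log2 difference 0.53, adjusted p = 0.00396) and in the last with only the 6 libraries compared (adjusted p = 0.0298). Scap, the escort of SREBP2, had 21.4 ± 1.37, 23.4 ± 1.98 and 24.1 ± 0.458 FPKM and gave no call. It passed as higher in LRH1+APAP than in Vehicle livers without APAP liver 1 (adjusted p = 0.0478) or with only the 6 libraries compared (adjusted p = 0.037).

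Insig1, the sterol-responsive retention factor and itself a known SREBP target (chromosome 5, 28071413 to 28078662), was measured at 35.5, 44.7 and 52.5 FPKM in Vehicle livers, 24.7, 27.8 and 31.2 FPKM in APAP livers and 47.04, 31.8 and 46.1 FPKM in LRH1+APAP livers. All APAP livers lay below all others, and Vehicle and LRH1+APAP livers overlapped. Insig1 fell in APAP against Vehicle livers (log2 difference -0.64, SE 0.18, adjusted p = 0.0144). This call did not hold without Vehicle liver 3 (log2 difference -0.51, adjusted p = 0.0547). LRH1+APAP livers did not pass against APAP livers (log2 difference 0.55, SE 0.18, adjusted p = 0.0781) or against Vehicle livers (log2 difference -0.088, SE 0.18, adjusted p = 0.708).

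Insig2, the second retention factor (chromosome 1, 121304354 to 121332589), was the member with the highest mean FPKM. It was measured at 65.3, 72.1 and 77.1 FPKM in Vehicle livers, 125, 160.4 and 164 FPKM in APAP livers and 85.6, 79.6 and 95.3 FPKM in LRH1+APAP livers. The APAP livers were far above all others, and every LRH1+APAP liver lay above every Vehicle liver. Insig2 rose in APAP against Vehicle livers (log2 difference 1.05, SE 0.12, adjusted p = 0.000229) and fell in LRH1+APAP against APAP livers (log2 difference -0.77, SE 0.12, adjusted p = 0.00972), and both calls passed under each of the 18 alternatives. LRH1+APAP livers did not pass against Vehicle livers (log2 difference 0.28, SE 0.12, adjusted p = 0.0874) except without APAP liver 1 (adjusted p = 0.0227) or with only the 6 libraries compared (adjusted p = 0.0263).

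The ratio of Insig2 to Insig1 FPKM set the APAP livers apart from the rest. It was 1.84, 1.61 and 1.47 in Vehicle livers, 5.07, 5.77 and 5.25 in APAP livers, and 1.82, 2.5 and 2.07 in LRH1+APAP livers. APAP liver 1, which lay among the Vehicle livers for Hmgcs1, Dhcr7 and Srebf2, stood with its own group here.

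Insig2 is known to be transcribed in mouse liver from alternative start sites. Of its 4 transcript models, NM_178082, which begins at the distal start (chromosome 1, 121332589, minus strand), held most of the level. NM_178082 was measured at 54.02, 62.4 and 66.7 FPKM in Vehicle livers, 114, 149.8 and 149.5 FPKM in APAP livers and 75.2, 66.2 and 84.1 FPKM in LRH1+APAP livers. Its APAP livers did not overlap with any other liver, whereas LRH1+APAP liver 2 lay within the Vehicle range. NM_133748, which begins at the proximal start (121328024), was measured at 10.2, 8.53 and 8.66 FPKM in Vehicle livers, 9.83, 8.59 and 12.1 FPKM in APAP livers and 8.98, 12.6 and 9.72 FPKM in LRH1+APAP livers, and its 3 groups overlapped. With the highest model alone in the fit, which is NM_178082, Insig2 rose in APAP against Vehicle livers (log2 difference 1.16, adjusted p = 0.000396) and fell in LRH1+APAP against APAP livers (log2 difference -0.86, adjusted p = 0.0142). The difference between the models was not tested, and the division of fragments between models is the authors' estimate. The distal window printed above, with its 3 CCAAT boxes, lies upstream of NM_178082 and the proximal window upstream of NM_133748.

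**Figure D3:**
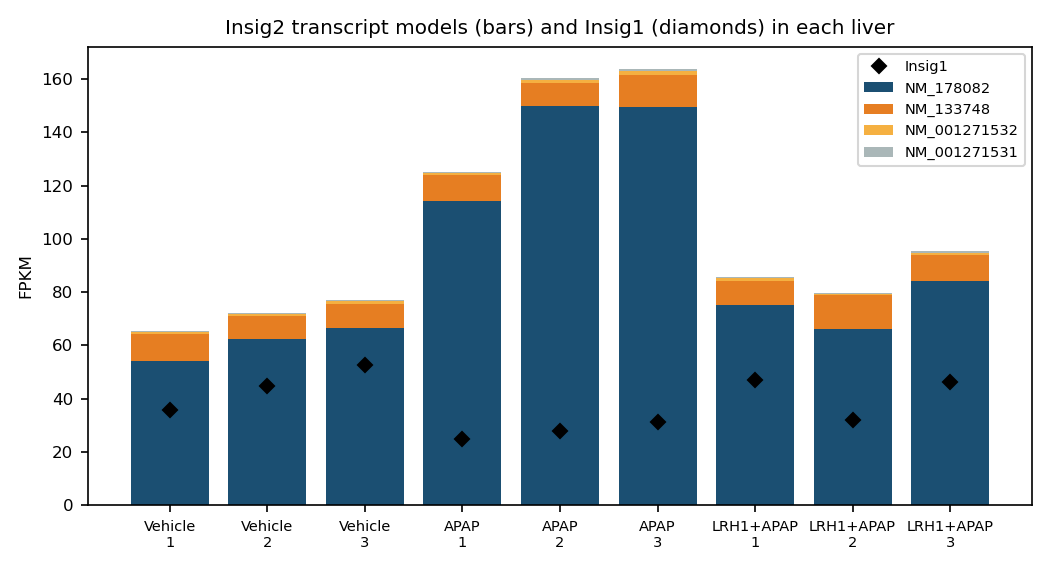
FPKM of the 4 Insig2 transcript models, stacked, in each of the 9 livers, with Insig1 FPKM as diamonds. NM_178082 (dark blue) is 114 to 149.8 FPKM in the APAP group and 54.02 to 84.1 FPKM in all other livers, while NM_133748 (orange) is 8.53 to 12.6 FPKM throughout and Insig1 is lowest in APAP livers.

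Among 14 other regulators of sterol sensing and SREBP traffic, 4 rose and 4 fell in APAP against Vehicle livers, beside 47.8% and 15.1% of all genes. Their median log2 difference was 0.084 beside 0.25 over all genes. The 3 with the smallest p were Ppp1r15a, a stress-induced phosphatase subunit (log2 2.86, adjusted p = 5.75e-05), Syvn1, a ubiquitin ligase of the endoplasmic reticulum (log2 1.22, adjusted p = 0.00169), and Sar1b, a GTPase of COPII vesicles (log2 -0.50, adjusted p = 0.0018). Against APAP livers, LRH1+APAP livers had 2 of 14 that passed, beside 12.3% of all genes, and both of the 14 rose. These were Erlin1, an endoplasmic reticulum protein of sterol-dependent degradation (log2 0.72, adjusted p = 0.0115), and Rnf139, a ubiquitin ligase with a sterol-sensing domain (log2 0.43, adjusted p = 0.0236). Of the 14, 4 rose and 3 fell in LRH1+APAP against Vehicle livers, beside 39.2% and 8.02% of all genes. Ppp1r15a, Erlin1 and Sar1b had the smallest p of the 14 there (log2 2.42, 0.98 and -0.74, adjusted p = 0.000139, 0.000462 and 0.000517).

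Genes outside the members that are known to respond to SREBPs were also divided. Of 10, 2 rose and 4 fell in APAP against Vehicle livers, beside 47.8% and 15.1% of all genes. The median of the 10 was -0.21. Acss2, an acetyl-CoA synthetase, Mmab, a cobalamin enzyme beside Mvk in the genome, and Fads1, a fatty acid desaturase, fell (log2 -0.95, -0.48 and -0.36, adjusted p = 0.00129, 0.00259 and 0.00505). Comparing LRH1+APAP with APAP livers, 2 rose and 2 fell, beside 7.13% and 5.17% of all genes. Of the 10, Aacs, an acetoacetyl-CoA synthetase, had the largest rise (log2 1.29, adjusted p = 0.00464), and the desaturases Fads1 and Fads2 fell (log2 -0.60 and -0.80, adjusted p = 0.00626 and 0.00673). Comparing LRH1+APAP with Vehicle livers, 4 rose and 3 fell, beside 39.2% and 8.02% of all genes. Fads1 and Fads2 fell and Aacs rose (log2 -0.96, -1.11 and 0.98, adjusted p = 7.78e-05, 0.000197 and 0.00222). Srebf1, the gene of the fatty acid regulator SREBP1, was at 11.4 ± 3.47, 11.1 ± 2.199 and 11.03 ± 0.828 FPKM in the 3 groups and did not pass (adjusted p of 0.975, 0.991 and 0.988).

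Of the transport and ester members, Stard4, a cytosolic sterol carrier, was measured at 14.5, 15.9 and 14.5 FPKM in Vehicle livers, 9.06, 5.62 and 8.38 FPKM in APAP livers and 11.9, 10.5 and 11.4 FPKM in LRH1+APAP livers. The 3 groups did not overlap, and APAP livers were lowest. Stard4 fell in APAP against Vehicle livers (log2 difference -0.90, SE 0.15, adjusted p = 0.00101), whereas LRH1+APAP narrowly missed the threshold against APAP (log2 difference 0.52, SE 0.15, adjusted p = 0.0511) and Vehicle livers (log2 difference -0.39, SE 0.15, adjusted p = 0.0555). Without APAP liver 1 or APAP liver 2 it passed in both of these comparisons, against APAP with adjusted p = 0.00973 and 0.0491 and against Vehicle with adjusted p = 0.0273 and 0.00348.

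Npc1, the lysosomal membrane protein that releases cholesterol, had 28.4 ± 1.2, 30.4 ± 3.83 and 36.2 ± 3.602 FPKM and rose in LRH1+APAP against Vehicle livers (log2 difference 0.33, SE 0.11, adjusted p = 0.03104). That call was lost without any 1 Vehicle liver or without LRH1+APAP liver 1 or 3 (adjusted p from 0.0581 to 0.113) and under both scalings. Soat2, the enzyme that esterifies cholesterol in hepatocytes, was measured at 20.03, 21.2 and 17.8 FPKM in Vehicle livers, 30.5, 27.1 and 28.96 FPKM in APAP livers and 29.3, 26.96 and 28.8 FPKM in LRH1+APAP livers. Both treated groups lay above all Vehicle livers and overlapped with each other. Soat2 rose in APAP (log2 difference 0.53, SE 0.082, adjusted p = 0.000819) and LRH1+APAP livers (log2 difference 0.51, SE 0.082, adjusted p = 0.00182) against Vehicle livers, and both calls passed under each of the 18 alternatives.

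Of 14 tested genes of lysosomal release, ester turnover and lipid transfer outside the members, 6 rose and 2 fell in APAP against Vehicle livers. Over all genes the shares were 47.8% and 15.1%, and the median of the 14 was 0.12. Osbp and Osbpl11, oxysterol-binding proteins, and Gramd1c, a sterol transfer protein, had the smallest p (log2 0.60, 0.44 and 0.70, adjusted p = 0.0002698, 0.000806 and 0.001298). Of the 14, 2 rose and 1 fell in LRH1+APAP against APAP livers, beside 7.13% and 5.17% of all genes. Nceh1, a cholesterol ester hydrolase, fell, and Stard5, a sterol carrier, and Lipa, the lysosomal acid lipase, rose (log2 -0.92, 0.85 and 0.52, adjusted p = 0.0156, 0.0472 and 0.0497). Of the same 14, 7 rose and 1 fell in LRH1+APAP against Vehicle livers, beside 39.2% and 8.02% of all genes. Osbpl11, Osbp and the lysosomal sterol carrier Npc2 had the smallest p of the 14 there (log2 0.55, 0.57 and 0.38, adjusted p = 0.000512, 0.000521 and 0.00273).

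Of the members known as LXR targets, Abca1, the transporter that loads cholesterol onto apolipoprotein A1, was measured at 19.1, 15.96 and 16.9 FPKM in Vehicle livers, 16.8, 28.5 and 24.1 FPKM in APAP livers and 18.8, 19.7 and 20.7 FPKM in LRH1+APAP livers. APAP liver 1 lay among the Vehicle livers and APAP livers 2 and 3 above all others. Abca1 passed in no comparison (adjusted p of 0.0801, 0.452 and 0.395). Without APAP liver 1 it was higher in APAP than in Vehicle livers (log2 difference 0.57, adjusted p = 0.00111) and lower in LRH1+APAP than in APAP livers (log2 difference -0.39, adjusted p = 0.0168).

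Abcg1, a transporter that passes cholesterol to high-density lipoprotein, was measured at 0.827, 1.15 and 0.859 FPKM in Vehicle livers, 1.26, 1.67 and 1.89 FPKM in APAP livers and 1.53, 1.52 and 1.78 FPKM in LRH1+APAP livers. Every treated liver lay above every Vehicle liver. It rose in APAP (log2 difference 0.42, SE 0.11, adjusted p = 0.0109) and LRH1+APAP livers (log2 difference 0.43, SE 0.11, adjusted p = 0.0148) against Vehicle livers. Both calls were lost under quantile normalization (adjusted p = 0.44 and 0.332), and the second also without Vehicle liver 1, Vehicle liver 3 or LRH1+APAP liver 3 (adjusted p from 0.0519 to 0.0583) and under upper-quartile scaling.

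Macrophages also express Abca1 and Abcg1, and macrophage markers moved with the groups. In the list of 10 markers of monocytes and macrophages, 9 rose in APAP against Vehicle livers, beside 47.8% of all genes. In LRH1+APAP against Vehicle livers 9 rose, beside 39.2% of all genes. In LRH1+APAP against APAP livers 2 fell (4 without APAP liver 1, and 1 without APAP liver 2 or 3), beside 5.17% of all genes. Lyz2 of this list passed as higher there without APAP liver 3 (log2 1.34, adjusted p = 0.00277). The summed level of these markers ran from 48.5 to 54.2 FPKM in the Vehicle group, from 109 to 221 FPKM in the APAP group and from 182 to 212 FPKM in the LRH1+APAP group, and 0 of 10 were at 0. The 5 Kupffer cell markers summed to 75.3 to 91.4, 122 to 137 and 101 to 116 FPKM, and 0 of 5 were at 0. Of these, 4 rose in APAP against Vehicle livers, beside 47.8% of all genes. In LRH1+APAP livers 2 rose against Vehicle livers, beside 39.2%, and 2 (1 without APAP liver 2 or 3) fell against APAP livers, beside 5.17%. Of other cell types, 7 of 9 endothelial and 5 of 8 stellate or fibroblast markers rose in APAP against Vehicle livers. So did 3 of 4 tested cholangiocyte markers and Cd3e, the only tested marker of 8 for lymphocytes, beside 47.8% of all genes. In LRH1+APAP against APAP livers, 4 endothelial and 1 stellate or fibroblast marker fell, beside 5.17% of all genes. Endothelial markers that fell there numbered 5, 2 and 0 without APAP liver 1, 2 and 3. Of the stellate or fibroblast markers, 1 rose and 3 fell without APAP liver 1, and 1 fell without APAP liver 2. Without APAP liver 3, 2 of them rose and 0 fell. Over all genes, 2031, 556 and 347 were higher and 2607, 418 and 127 lower in those fits. Against Vehicle livers, 1 endothelial, 6 stellate or fibroblast and 3 cholangiocyte markers and Cd3e rose in LRH1+APAP livers, beside 39.2% of all genes. Summed levels in Vehicle, APAP and LRH1+APAP livers were 105 to 122, 161 to 215 and 129 to 137 FPKM for endothelial, 73.8 to 129, 176 to 255 and 196 to 199 FPKM for stellate or fibroblast, and 18.1 to 20.2, 34.1 to 79.2 and 39.5 to 135 FPKM for cholangiocyte markers. The lymphocyte markers summed to at most 7.72 FPKM in any liver, and none of these markers was at 0 in all livers. The part of these cells in the differences of the members was not tested.

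Mylip, a ubiquitin ligase that targets lipoprotein receptors for degradation, was measured at 4.695, 5.93 and 5.77 FPKM in Vehicle livers, 5.67, 3.77 and 5.94 FPKM in APAP livers and 6.53, 7.48 and 8.14 FPKM in LRH1+APAP livers. All LRH1+APAP livers lay above all others. It did not pass in LRH1+APAP against APAP (log2 difference 0.47, SE 0.15, adjusted p = 0.0758) or Vehicle livers (log2 difference 0.38, SE 0.15, adjusted p = 0.0726). It passed in the first without APAP liver 1 (adjusted p = 0.0367). In the second it passed without APAP liver 2 (adjusted p = 0.016) or with only the 6 libraries compared (adjusted p = 0.0165).

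Of 11 other LXR-linked genes, 3 rose and 3 fell in APAP against Vehicle livers, beside 47.8% and 15.1% of all genes. The median of the 11 was -0.0082. Abcg5 and Abcg8, which together export sterols into bile, fell. Abcg5 was measured at 44.4, 40.6 and 44.04 FPKM in Vehicle livers, 26.2, 15.2 and 24.2 FPKM in APAP livers and 22.96, 25.5 and 20.9 FPKM in LRH1+APAP livers, and fell in APAP (log2 difference -0.98, SE 0.18, adjusted p = 0.00167) and LRH1+APAP livers (log2 difference -0.87, SE 0.18, adjusted p = 0.00489) against Vehicle livers. Abcg8 had 35.04 ± 3.44, 16.7 ± 6.803 and 18.7 ± 1.96 FPKM and fell in the same comparisons (log2 -1.10 and -0.87, adjusted p = 0.00607 and 0.0246). Neither passed in LRH1+APAP against APAP livers (adjusted p = 0.699 and 0.568). There 0 of 11 passed by limma, beside 12.3% of all genes, and 3 of the 11 had an unadjusted p under 0.05. Lpl, a lipase of vessel walls and macrophages, rose in APAP and LRH1+APAP against Vehicle livers (log2 1.67 and 2.29, adjusted p = 0.00145 and 0.000585), as did Arl4c, a small GTPase, in APAP livers (log2 0.39, adjusted p = 0.00232). Of the 11, 2 rose and 2 fell in LRH1+APAP against Vehicle livers, beside 39.2% and 8.02% of all genes. Nr1h3, the gene of LXR alpha, was at 48.8 ± 1.62, 49.9 ± 5.47 and 48.2 ± 1.85 FPKM and passed in no comparison.

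Enzymes that turn cholesterol into oxysterols and bile acids numbered 6. In APAP against Vehicle livers 2 rose and 2 fell, beside 47.8% and 15.1% of all genes. In LRH1+APAP against APAP livers 2 rose, beside 7.13% of all genes. In LRH1+APAP against Vehicle livers 0 passed by limma, beside 47.2% of all genes, and 1 of the 6 had an unadjusted p under 0.05. Cyp7a1, which starts the main route to bile acids, was measured at 50.02, 37.7 and 19.7 FPKM in Vehicle livers, 2.21, 1.77 and 1.13 FPKM in APAP livers and 34.6, 81.2 and 77.4 FPKM in LRH1+APAP livers. The APAP livers lay far below all others. Cyp7a1 fell in APAP against Vehicle livers (log2 difference -3.69, SE 0.39, adjusted p = 0.000172) and rose in LRH1+APAP against APAP livers (log2 difference 4.52, SE 0.39, adjusted p = 0.00163). Cyp27a1, the sterol 27-hydroxylase, fell and rose in the same comparisons (log2 -0.94 and 0.78, adjusted p = 0.000453 and 0.0109). Ch25h, the cholesterol 25-hydroxylase, was measured at 0.916, 19.8 and 4.704 FPKM in APAP livers and stayed under 0.5 FPKM in each other liver. It rose in APAP against Vehicle livers (log2 difference 2.57, SE 0.68, adjusted p = 0.00982), with APAP liver 2 far above livers 1 and 3.

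The counts of the pathway lists outside the members were also taken without each APAP liver. Leaving out liver 1, the 12 nonsterol genes had 1 higher and 4 lower in LRH1+APAP against APAP livers, the 11 LXR-linked genes 2 higher, the 14 SREBP regulators 2 lower beside the 2 higher, and the 6 oxysterol and bile acid enzymes 2 lower beside the 2 higher. Over all genes, 2031 were then higher and 2607 lower in this comparison. Without APAP liver 2 or liver 3, the rises of Stard5 (adjusted p = 0.084 and 0.133) and Lipa (adjusted p = 0.0804 and 0.0961) did not pass, and without liver 3 neither did that of Rnf139 (adjusted p = 0.0706). In APAP against Vehicle livers, the oxysterol and bile acid enzymes had 4 lower without liver 1, and the nonsterol genes had 5 higher without liver 2. The SREBP-responsive genes had 1 higher there without liver 2 or liver 3, and 5 lower in LRH1+APAP against Vehicle livers without APAP liver 1. Over all genes, APAP against Vehicle livers gave 2246 lower without liver 1, 5497 higher without liver 2 and 5034 higher without liver 3. LRH1+APAP against Vehicle livers gave 1357 lower without APAP liver 1.

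LRH1+APAP liver 2 was the lowest of its group for 21 of 29 members (72.4%) and liver 3 the highest for 21 of 29. Over all 12202 genes tested, LRH1+APAP liver 2 was lowest for 36.6% and liver 3 highest for 46.6%. In the APAP group, liver 1 was lowest for 17 of 29 members (58.6%), beside 50.1% of all genes, and in the Vehicle group liver 1 was lowest for 19 of 29 (65.5%), beside 30.2% of all genes, and liver 2 highest for 19 of 29, beside 38.7%. These are descriptions of single livers, with no test, and genes are not independent of each other.

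The highest liver of a group was more than 2 times the lowest for 0 of 29 members among Vehicle livers and for 4 of 29 in each treated group, while over all genes the share was 5.09% for Vehicle livers, 14.5% for APAP livers and 3.93% for LRH1+APAP livers. In APAP livers these were Hmgcs1, Idi1, Sqle and Msmo1, with the largest ratio at 3.93, and in LRH1+APAP livers Hmgcs1, Idi1, Cyp51 and Msmo1, with the largest at 2.81. The median coefficient of variation over members was 9.36%, 18.2% and 9.96% in Vehicle, APAP and LRH1+APAP livers, beside 7.86%, 15.5% and 7.50% over all genes. The neutrophil markers summed to 30.5, 466 and 47.2 FPKM in APAP livers 1, 2 and 3, against 1.66 to 2.74 in Vehicle and 5.42 to 6.39 in LRH1+APAP livers. Of these 7 markers, 5 were tested and all 5 rose in APAP against Vehicle livers, beside 47.8% of all genes. In LRH1+APAP against APAP livers 2 of the 5 fell, beside 5.17% of all genes. Of the 5, all 5 fell without APAP liver 1, 4 without APAP liver 2 and 1 without APAP liver 3. Over all genes, 2607, 418 and 127 were lower in those fits. Of the 7 neutrophil markers, 0 were at 0 in all livers. Their part in the spread of the members was not tested.

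**Figure D4:**
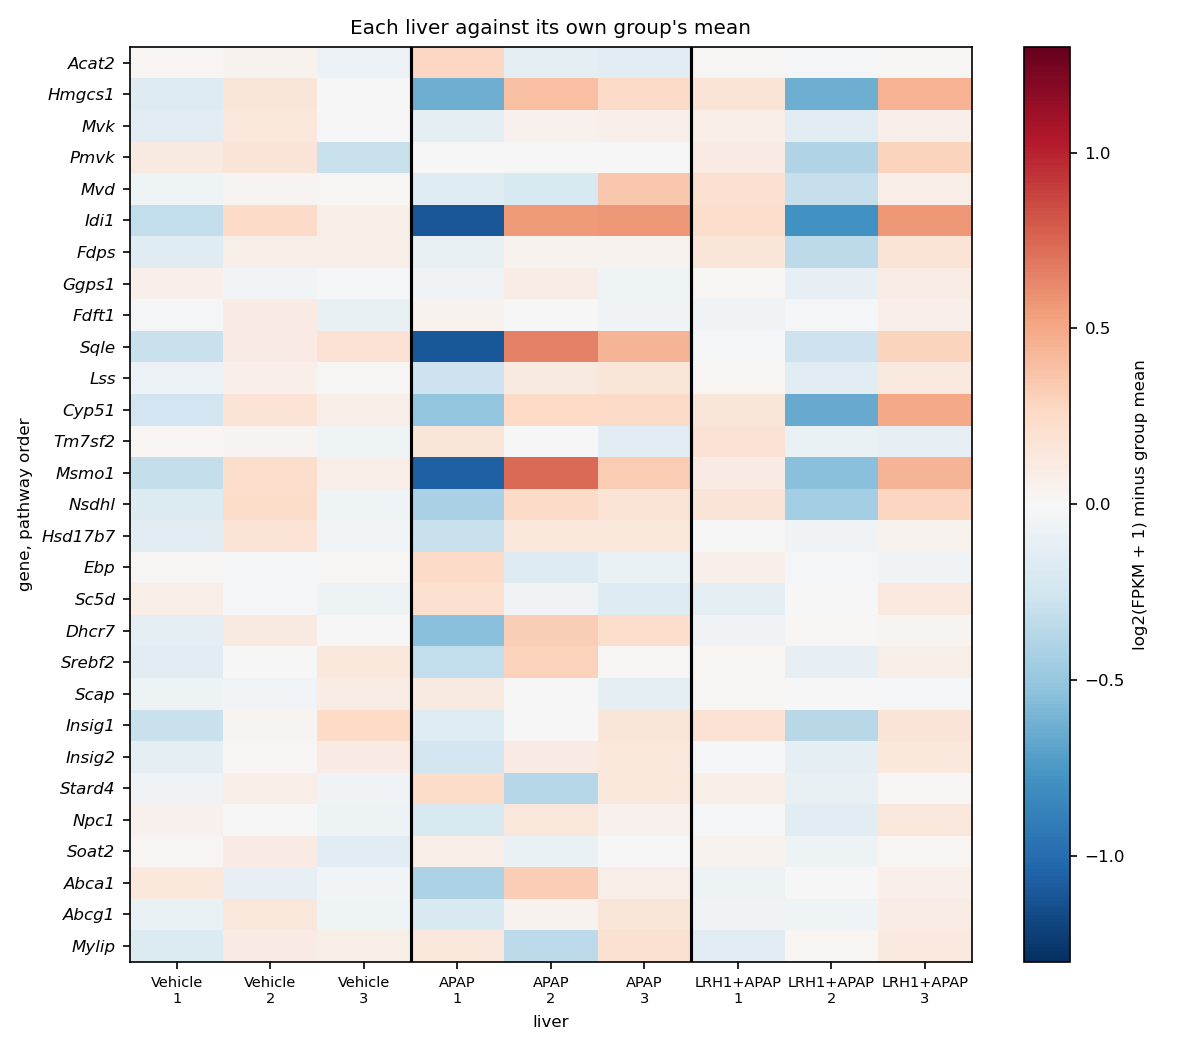
Deviation of each liver's log2(FPKM + 1) from the mean of its own group, for the 29 members in pathway order (rows) and the 9 livers (columns); red is above and blue below the group mean. APAP liver 1 and LRH1+APAP liver 2 are blue for Hmgcs1, Idi1, Sqle, Cyp51 and Msmo1, and LRH1+APAP liver 3 is red for the same genes.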

How the data were processed

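Messenger RNA of 9 mouse livers was sequenced, with 3 livers in each of 3 groups taken from the sample labels. According to the labels' protocols, tissue was kept in RNAlater, Trizol was used to extract RNA, and 1 µg of it went into each TruSeq mRNA library. The series text says LRH1 where the labels say LRH1+APAP, and the labels were followed. The deposited values are FPKM per transcript model computed by the authors on mm10, and the tools named in the submitters' processing notes, with no role stated, are StringTie 1.3.3b, Bowtie2 2.2.6 and FastQC 0.10.0. Scaling between libraries is not given in the sources used here. Read counts were not analysed, so depth is unknown and precision comes from the spread between livers.

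FPKM of 36779 models was summed per symbol, transformed as log2(FPKM + 1), which understates changes of low genes, and filtered to a mean of at least 0.5 FPKM. One limma 3.58.1 fit (R 4.3.3) with eBayes and trend covered all 9 livers (6 residual degrees of freedom), with 3 two-sided contrasts and Benjamini-Hochberg adjustment over 12202 genes. The fit was tested on simulated data that gave each gene the same spread in all 3 groups. In the real data APAP livers spread more than the others. Members, gene lists, tests and alternatives were chosen with earlier results of these data known. Full values were set for members that passed with an absolute log2 difference of at least 1 and for Insig1, Insig2, Srebf2, Sqle and Hmgcs1; per-liver values of further members are given where a result turns on them. Other lists name up to 3 passing genes of smallest p per comparison, plus Srebf1, Nr1h3, Abcg5 and Abcg8. Some genes of the pathway are not reported here.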

Additional observations from a re-analysis of the deposited data

How the results depend on the processing

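Each count and each member's call was recomputed under 18 alternatives for a comparison: another pseudocount, other filters, other scalings, fewer libraries, the liver number as a block, other choices of transcript model and each liver left out (17 for members with a mean under 5 FPKM). Counts of the other lists without each APAP liver were added after seeing the data. For APAP against Vehicle livers, 10 of the 15 member calls passed in all of them (Acat2, Cyp51, Ebp, Fdft1, Insig2, Mvd, Sc5d, Soat2, Sqle and Stard4), for LRH1+APAP against APAP 1 of 4 (Insig2), and for LRH1+APAP against Vehicle 2 of 9 (Fdft1 and Soat2). Where a member passed neither in the reported fit nor in the alternative, a change of sign was given no direction. For APAP against Vehicle, quantile normalization gave 5 higher members, 3126 higher and 3699 lower genes, upper-quartile scaling 3810 and 3227 genes, and a mean of at least 5 FPKM 3392 higher genes. Ggps1 turned to -0.015 with its highest model alone (adjusted p = 0.952), and Lss passed as lower under quantile normalization (adjusted p = 0.0286). For LRH1+APAP against APAP, the 6 libraries alone gave 0 higher members, with 203 higher and 60 lower genes, and the highest model alone 416 lower genes. For LRH1+APAP against Vehicle, higher members numbered 5 with a mean of at least 5 FPKM, 3 under upper-quartile scaling, 1 under quantile normalization and 15 with 6 libraries, and lower members 6, 4 and 3 under the last 3. Higher genes there numbered 2887, 2358 and 1899 under the filter and the scalings, and lower genes 2396, 2624 and 1502 under the scalings and 6 libraries. The filter kept fewer genes, the fits of 6 libraries used fewer livers, and the scalings moved the median of all genes. The cause of these changes was not tested.

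With each liver left out in turn, APAP against Vehicle gave 8 to 14 higher and 5 to 6 lower members, among 5034 to 6189 higher and 1496 to 2246 lower genes. LRH1+APAP against APAP gave 0 to 6 higher and 1 to 6 lower members, among 158 to 2031 and 53 to 2607 genes, the highest counts being without APAP liver 1. LRH1+APAP against Vehicle gave 2 to 13 higher and 1 to 3 lower members, among 3309 to 5692 and 543 to 1357 genes, with 13 and 3 without APAP liver 1, 2 higher without Vehicle liver 1 or LRH1+APAP liver 3, 4 without Vehicle liver 3, 3 without LRH1+APAP liver 1, and 2 lower without APAP liver 2. Leaving out an APAP liver changed only the p-values of LRH1+APAP against Vehicle, not its log2 differences. The labels state no pairing by liver number. Deviations from group means correlated at -0.136 to 0.0682 over 9 pairs of same-numbered livers of different groups. Over 18 pairs with different numbers they correlated at -0.179 to 0.197. With 3 livers per group, these values cannot exclude a pairing. With the liver number as a block, LRH1+APAP against APAP gave 1 higher member, 508 higher and 299 lower genes. The calls of Acat2, Fdft1 and, against Vehicle, Npc1 were lost (adjusted p = 0.0501, 0.0569 and 0.0551). Unknown depth leaves the error of low members such as Abcg1 and Mvd to the spread between 3 livers.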
